A study of Mus musculus with 18 samples.

Results

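The interferon response genes described here are 45 mouse genes: the chains of the type I interferon receptor, the factors that carry its signal, and genes that interferons are known to induce. Each gene was read from the brightest probe set that the array annotation assigned to its symbol alone, over 18 arrays. Of the 45 genes, 43 had such a probe set, out of 22180 genes measured in the same way. Gbp2 and Dtx3l lay only on probe sets annotated to several symbols and were not measured.

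The cells were microglia, the resident macrophages of the brain, of C57Bl/6 mice kept specific-pathogen-free and left untreated in every group. They were enriched on a Percoll gradient and sorted as CD45-positive, CD11b-positive and Gr1-negative cells. The 6 groups, of 3 arrays each, were the corpus callosum and the cortex on postnatal days 3 (P3) and 7 (P7) and in adult mice, whose age the labels do not give in days. The callosum is a tract of nerve fibres that myelinates after birth, and the cortex is grey matter. The labels state no transgene or mutant allele for any group. They do not say whether an array held 1 animal or a pool, nor whether the 3 samples of a group came from separate animals, so the p-values measure only the spread between these samples. RNA was amplified before hybridisation, and the number of arrays limits the precision of every value.

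Type I interferons bind the receptor of Ifnar1 and Ifnar2, which leads Stat2 and Irf9 to act in a complex that binds the interferon-stimulated response element (ISRE) in promoters. The genes induced in this way encode sensors of viral nucleic acid, ISG15, a small protein that is attached to other proteins, the enzymes that remove it, and effectors that block viral replication. Interferon gamma acts through another receptor and induces guanylate-binding proteins and immunity-related GTPases more strongly. Microglia carry both pathways, and a subset of microglia with high levels of these genes is known in development, ageing and disease.

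Values below are log2 expression levels, on which a difference of 1 is a doubling, and a level is compared with the same gene on other arrays or with the median of its array. Differences carry the standard error (SE) of a limma fit over all 18 arrays. A gene was called where its Benjamini-Hochberg adjusted p, over the 22180 genes, was under 0.05. The identity of the cells was checked first. Of 10 microglia markers, 9 were measured, and all of them lay above the array median on every array, with list means between 10.33 and 11.42. Array medians ran from 5.58 to 5.74, and the correlation between arrays over all genes lay between 0.937 and 0.991. Of the 43 interferon response genes, 24 lay above the array median on all 18 arrays, 15 on some, and 4 (Mx1, Rsad2, Cmpk2 and Samd9l) on none. The receptor chains, Stat2, Irf9 and Irf1 belonged to the 24. No detection call was given for a probe set, so differences of the 4 low genes are uncertain in size. Isg15 lay above the median on 1 of the 18 arrays, Ifit2 on 5 and Oasl2 on 6, so their differences are uncertain too. Fewer cells with a high level and less RNA of a gene in every cell cannot be told apart in these sorted samples.

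The promoters were searched for the core letters of the response element, and elements with other letters or outside the promoter window were not searched. RefSeq promoters of the GRCm38.p6 build, from 250 bases before to 50 bases after the start of a gene, were at hand for 35 of the 45 genes. The others were Dhx58, Zbp1, Ifi204, Usp18, Mx1, Mx2, Oas2, Parp9, Parp14 and Rtp4. The core of the ISRE, GAAA, any bases NN and GAAA on either strand, stood in the promoter of 17 of the 35 genes (48.6%) and of 1079 of 27025 genes with a promoter (3.99%), or in 3.44% of 32851 promoters. The gamma-activated sequence (GAS), TTCNNNGAA on either strand, stood in 12 of the 35 (34.3%) and in 9.55% of all genes, or 8.3% of promoters. The list holds genes chosen for their known induction by interferon, so the share of ISRE cores is a description of the list. Of 26 ISRE cores in these promoters, 2 overlapped a GAS. The 6 stretches below were chosen among the genes with an ISRE core, for the values of those genes. Ddx58, Ifih1 and Igtp rose in adult microglia of both regions, Irgm1 rose in adult cortex, and Bst2 fell in adult callosum. Isg15, the classic induced gene, was called in no comparison, but it lay above the array median on only 1 of 18 arrays. Herc6, Ifnar2, Isg20 and Sp100 also rose in both regions, and their promoters held no core. Usp18 rose in both regions too, but its promoter was not at hand. Each stretch is written 5′ to 3′ on the strand of the gene, with ISRE cores in capitals.
Ddx58: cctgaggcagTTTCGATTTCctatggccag
Ifih1: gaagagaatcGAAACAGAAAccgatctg
Igtp: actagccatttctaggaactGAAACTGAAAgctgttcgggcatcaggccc
Irgm1: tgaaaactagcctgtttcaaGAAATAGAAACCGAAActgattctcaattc
Bst2: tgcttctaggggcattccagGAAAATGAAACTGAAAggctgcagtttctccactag
Isg15: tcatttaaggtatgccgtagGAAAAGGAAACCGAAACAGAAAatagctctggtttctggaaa

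The stretch of Ddx58 lies at chr4:40239804-40239833 on the minus strand, with the core from base 3 after the start of the gene and read on the opposite strand. That of Ifih1 lies at chr2:62646206-62646233 on the minus strand, from base 33 after the start. The Igtp stretch lies at chr11:58199502-58199551 on the plus strand, 34 bases before the start. The Irgm1 stretch lies at chr11:48871421-48871470 on the minus strand, 30 bases before the start, and holds 2 overlapping cores. In Bst2 (chr8:71537567-71537622, minus strand, 130 bases before the start) 2 cores overlap, and in Isg15 (chr4:156200855-156200916, minus strand, 78 bases before the start) 3 cores overlap. A match of letters is a description of these windows and was not tested for binding.

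Between P7 and the adult, part of the list rose, and it did so in both regions. In cortex, 12 of 43 genes (27.9%) were called higher in adult than in P7 microglia and 0 lower, where 4.05% of all genes were called higher and 6.15% lower. In corpus callosum, 10 of 43 were called higher and 1 (Bst2) lower, where 6.56% of all genes were called higher and 10.7% lower. Higher in both were Ddx58, Herc6, Ifih1, Ifnar2, Igtp, Isg20, Sp100 and Usp18, which make up 66.7% of the genes called higher in cortex and 80% of those in callosum. The comparisons share no array. Over all genes, 598 were called higher in both regions, or 66.5% of the cortical and 41.1% of the callosal calls. The median difference of the 43 genes was 0.32 in cortex, against 0.03 for all genes, and 0.16 in callosum, against 0.05 for all genes. The adult arrays lay wholly above the P7 arrays for 18 of the 43 in cortex and 14 in callosum (13.7% and 17.7% of all genes) and wholly below for 4 in each region (13.7% and 17%). Differences were positive for 32 of the 43 in cortex and 31 in callosum (55.9% and 57.6% of all genes), and 20 and 16 had an unadjusted p under 0.05 (20.4% and 28.9% of all genes). Adult and P7 samples carry the same label prefix.

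**Figure D1:**
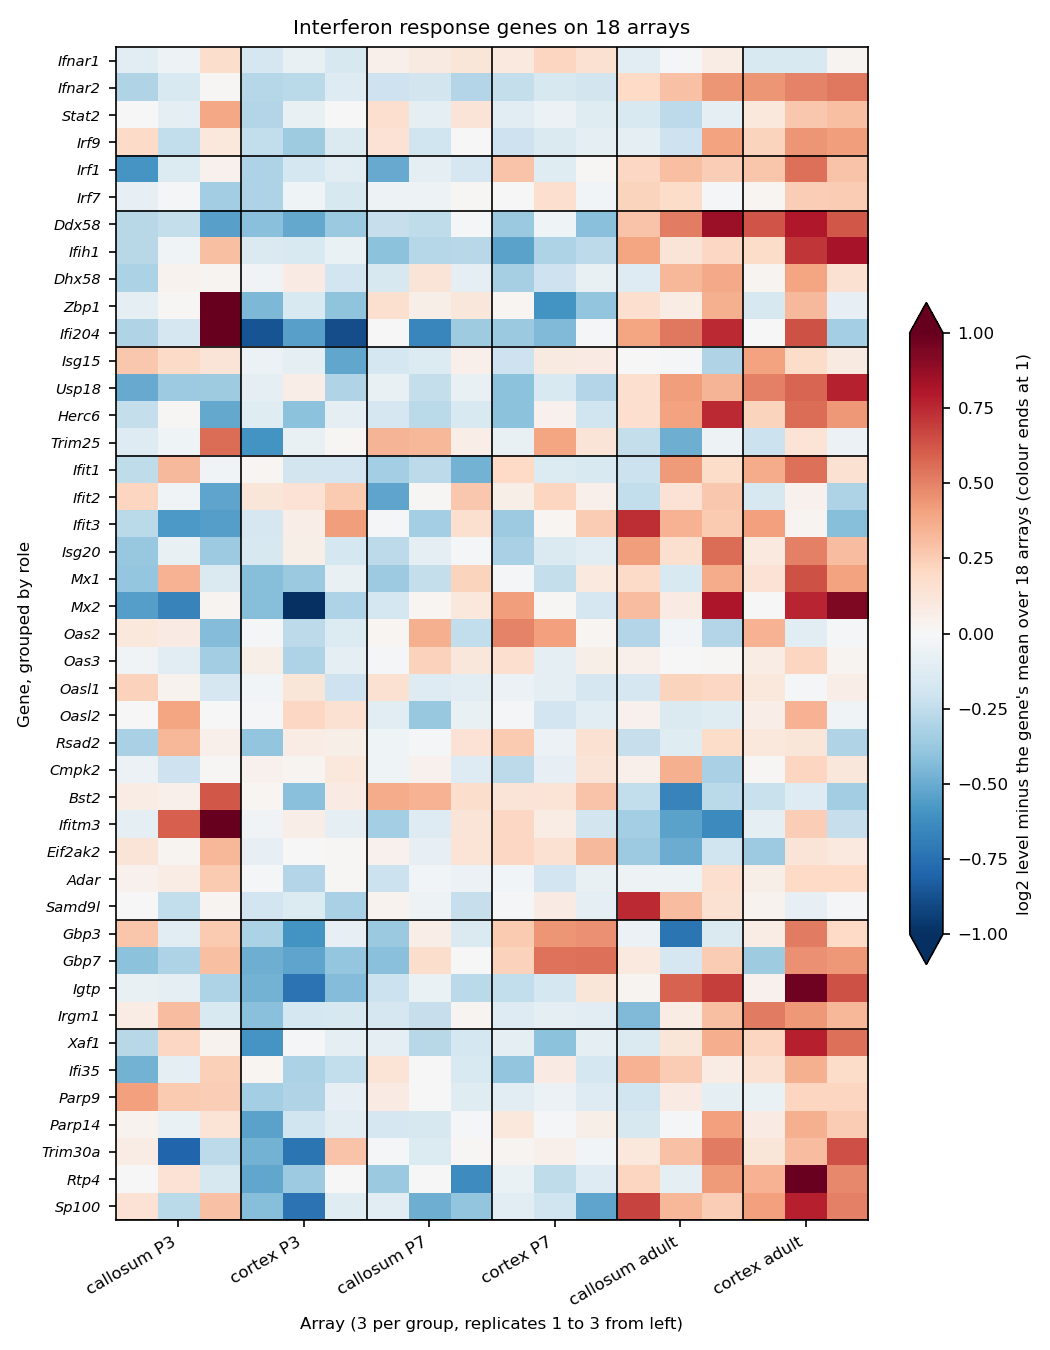
Each row is a gene, grouped by role between horizontal lines, and each column an array, in groups of 3 between vertical lines. Colour gives the log2 level minus the mean of the gene over the 18 arrays (red above, blue below, with colours ending at 1). Adult columns are mostly red for Ifnar2, Ddx58, Ifih1, Usp18, Herc6 and Igtp, whereas Bst2 is blue there, and the third callosal P3 array stands out for Ifi204, Zbp1 and Ifitm3.

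Among the receptor chains, Ifnar2, the chain that exists in long and soluble forms, rose, and Ifnar1, its partner, did not. Ifnar2 had levels of 10.61, 10.67 and 10.69 in adult cortex, against 9.93, 10.004 and 9.98 in P7 cortex. In callosum it had 10.37, 10.46 and 10.61 in the adult and 9.96, 9.98 and 9.88 at P7. No adult array overlapped a P7 array in either region, and the difference was 0.68 ± 0.11 in cortex (adjusted p = 0.000241) and 0.54 ± 0.11 in callosum (adjusted p = 0.00143). Ifnar1 had 8.50, 8.51 and 8.68 in adult cortex and 8.75, 8.87 and 8.81 at P7, a difference of -0.25 ± 0.11 that was not called (adjusted p = 0.183) although the arrays did not overlap. Its callosal levels, 8.54, 8.64 and 8.73 in the adult and 8.71, 8.74 and 8.77 at P7, overlapped.

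Of the partners in the transcription complex, Irf9 was called in cortex, and a difference between the regions was called for neither Irf9 nor Stat2. Irf9, the subunit that binds DNA, had 7.31, 7.53 and 7.51 in adult cortex and 6.88, 6.94 and 7.00 in P7 cortex, and rose by 0.51 ± 0.16 (adjusted p = 0.0428). In callosum its levels of 7.00, 6.88 and 7.49 in the adult and 7.24, 6.89 and 7.08 at P7 overlapped (0.05 ± 0.16, adjusted p = 0.866). Stat2, which joins it in the complex, had 6.96, 7.12 and 7.15 in adult cortex and 6.75, 6.79 and 6.73 in P7 cortex, without overlap but without a call (0.32 ± 0.13, adjusted p = 0.159). In callosum Stat2 had 6.70, 6.59 and 6.75 in the adult and 7.02, 6.75 and 6.98 at P7, with a difference of -0.24 ± 0.13 (adjusted p = 0.248). The change with age in callosum minus that in cortex was -0.56 ± 0.18 for Stat2 (adjusted p = 0.437) and -0.46 ± 0.22 for Irf9 (adjusted p = 0.688). The call of Irf9 in cortex was lost without any single array of the compared groups other than the first adult one.

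Of the interferon regulatory factors, Irf1, which interferon gamma induces, rose in callosum, and Irf7, the amplifier of the type I response, was called in neither region. Irf1 had 7.10, 7.19 and 7.14 in adult callosum and 6.39, 6.80 and 6.72 at P7, a difference of 0.51 ± 0.16 (adjusted p = 0.0342). In cortex it had 7.17, 7.45 and 7.18 in the adult and 7.18, 6.77 and 6.91 at P7, which overlapped (adjusted p = 0.281). Irf7 had 6.15, 6.11 and 5.91 in adult callosum against 5.88, 5.88 and 5.94 at P7, and 5.95, 6.17 and 6.18 in adult cortex against 5.92, 6.10 and 5.90 at P7. The Irf7 groups overlapped in both regions, with adjusted p = 0.419 in callosum and 0.642 in cortex.

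Both main RNA sensors rose in both regions. Ddx58, which encodes RIG-I, had 7.03, 7.20 and 7.02 in adult cortex against 6.03, 6.36 and 5.98 in P7 cortex, and 6.69, 6.92 and 7.26 in adult callosum against 6.18, 6.15 and 6.38 in P7 callosum. Its difference was 0.96 ± 0.15 in cortex (1.95-fold, adjusted p = 0.000164) and 0.72 ± 0.15 in callosum (adjusted p = 0.00166). Ifih1, which encodes MDA5, had 7.10, 7.64 and 7.74 in adult cortex against 6.38, 6.61 and 6.65 in P7 cortex, and 7.31, 7.05 and 7.12 in adult callosum against 6.51, 6.63 and 6.64 in P7 callosum. It rose by 0.94 ± 0.16 in cortex (adjusted p = 0.000556) and by 0.57 ± 0.16 in callosum (adjusted p = 0.02), and for both sensors no adult array overlapped a P7 array. Dhx58, the related protein without the signalling domain, differed by 0.40 ± 0.15 in cortex (adjusted p = 0.13) and 0.24 ± 0.15 in callosum (adjusted p = 0.335). The nucleic acid sensors Zbp1 and Ifi204 were called in neither region. The difference of Ifi204 in callosum, 0.89 ± 0.49, was the largest positive one there and had an adjusted p of 0.25. Its callosal levels of 6.13, 6.27 and 6.48 in the adult and 5.74, 5.08 and 5.38 at P7 did not overlap. The SE is that of the fit of all groups, which also holds the P3 callosal arrays, where Ifi204 spread most (standard deviation 1.64). With only the compared groups fitted, Ifi204 was called higher in adult callosum (adjusted p = 0.00906).

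Of the 4 genes of the ISG15 system, Usp18 and Herc6 rose in both regions, and Isg15 and Trim25 were not called. Usp18, the protease that removes ISG15 from proteins and also blocks signalling at Ifnar2, had 6.38, 6.45 and 6.64 in adult cortex and 5.46, 5.72 and 5.58 in P7 cortex. In callosum it had 6.04, 6.28 and 6.21 in the adult and 5.80, 5.63 and 5.80 at P7. It rose by 0.90 ± 0.12 in cortex (1.87-fold, adjusted p = 5.42e-05) and by 0.43 ± 0.12 in callosum (adjusted p = 0.0198), without overlap. Herc6, the ligase that attaches ISG15 in mice, had 7.60, 7.93 and 7.80 in adult cortex against 6.96, 7.41 and 7.17 in P7 cortex, and 7.54, 7.78 and 8.12 in adult callosum against 7.21, 7.10 and 7.22 in P7 callosum. Its rise was 0.59 ± 0.17 in cortex (adjusted p = 0.0262) and 0.64 ± 0.17 in callosum (adjusted p = 0.0114), again without overlap. Isg15 itself had 5.71, 5.49 and 5.40 in adult cortex against 5.10, 5.40 and 5.39 in P7 cortex, and 5.31, 5.30 and 5.01 in adult callosum against 5.14, 5.17 and 5.36 in P7 callosum. These groups overlapped, with differences of 0.24 ± 0.14 (adjusted p = 0.4) and -0.02 ± 0.14 (adjusted p = 0.961). Trim25, a ligase that acts on RIG-I, differed by -0.51 ± 0.19 in callosum (adjusted p = 0.0861), the next lowest difference there after Bst2. It was called lower under 2 alternatives.

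Most of the 17 antiviral effectors were not called: 1 was called higher in cortex, and 2 were called higher and 1 lower in callosum. Of all genes, 4.05% were called higher in cortex, and 6.56% were called higher and 10.7% lower in callosum. Isg20, an RNA exonuclease, had 5.92, 6.33 and 6.13 in adult cortex against 5.50, 5.68 and 5.71 in P7 cortex, and 6.24, 5.99 and 6.38 in adult callosum against 5.56, 5.74 and 5.80 in P7 callosum. It rose by 0.50 ± 0.14 in each region (adjusted p = 0.0264 in cortex and 0.0163 in callosum), and the groups did not overlap. Samd9l, a growth-restricting antiviral factor, had 5.64, 5.20 and 5.05 in adult callosum against 4.93, 4.84 and 4.66 in P7 callosum, a difference of 0.49 ± 0.14 (adjusted p = 0.0198) between levels that lay under the array medians. In cortex its levels of 4.93, 4.81 and 4.89 in the adult and 4.88, 4.98 and 4.80 at P7 overlapped.

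Bst2, which encodes tetherin and holds budding virus at the cell surface, moved the other way. It had 8.21, 7.79 and 8.19 in adult callosum and 8.82, 8.80 and 8.63 in P7 callosum, and fell by 0.69 ± 0.17, which is 1.61-fold (adjusted p = 0.0063). In cortex it had 8.23, 8.32 and 8.11 in the adult and 8.59, 8.59 and 8.74 at P7, a difference of -0.42 ± 0.17 that was not called (adjusted p = 0.143). Adult and P7 arrays did not overlap in either region. Eif2ak2, which encodes the RNA-dependent kinase PKR, also lay lower on every adult array than on any P7 array of its region, with -0.39 ± 0.14 in callosum (adjusted p = 0.057) and -0.28 ± 0.14 in cortex (adjusted p = 0.268). In callosum Eif2ak2 was called lower under 5 alternatives (adjusted p from 0.0273 to 0.045). Ifitm3, a membrane protein that hinders viral entry, had 7.12, 6.93 and 6.82 in adult callosum against 7.12, 7.33 and 7.59 in P7 callosum, and 7.37, 7.71 and 7.23 in adult cortex against 7.67, 7.54 and 7.28 in P7 cortex. Neither Ifitm3 difference was called (-0.39 ± 0.25, adjusted p = 0.328, and -0.06 ± 0.25, adjusted p = 0.945).

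Several effectors that are often used as a readout of interferon were not called between the adult and P7. Ifit3, which binds foreign RNA together with Ifit1, had 7.71, 7.31 and 7.23 in adult callosum against 6.95, 6.63 and 7.13 in P7 callosum, and 7.38, 7.00 and 6.55 in adult cortex against 6.61, 6.99 and 7.22 in P7 cortex. The callosal arrays did not overlap (0.51 ± 0.21, adjusted p = 0.116), and the cortical ones did (0.04 ± 0.21, adjusted p = 0.962). Oasl2, of the oligoadenylate synthetase family, had 5.66, 5.48 and 5.50 in adult callosum against 5.51, 5.24 and 5.55 in P7 callosum, and 5.69, 5.97 and 5.59 in adult cortex against 5.60, 5.43 and 5.52 in P7 cortex. Its groups overlapped in both regions.

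Rsad2, which encodes viperin, had 4.27, 4.37 and 4.68 in adult callosum against 4.46, 4.48 and 4.64 in P7 callosum, and 4.60, 4.62 and 4.20 in adult cortex against 4.76, 4.44 and 4.65 in P7 cortex. Mx1, a GTPase whose gene carries a deletion in C57Bl/6 mice, had 4.82, 4.48 and 5.002 in adult callosum against 4.26, 4.39 and 4.85 in P7 callosum, and 4.77, 5.27 and 5.03 in adult cortex against 4.61, 4.39 and 4.73 in P7 cortex. Both genes lay under the array median on every array, and only the cortical groups of Mx1 did not overlap (0.45 ± 0.20, adjusted p = 0.209). Adar, the RNA editing enzyme that limits sensing of self RNA, had 6.97, 6.97 and 7.20 in adult callosum against 6.81, 6.99 and 6.96 in P7 callosum, and 7.08, 7.22 and 7.22 in adult cortex against 6.99, 6.84 and 6.95 in P7 cortex. It was not called in callosum (0.12 ± 0.12, adjusted p = 0.53) or in cortex (0.25 ± 0.12, adjusted p = 0.24). Ifit1, Ifit2, Mx2, Oas2, Oas3, Oasl1 and Cmpk2 were likewise called in neither region, with differences between -0.25 (Ifit2 in cortex) and 0.49 (Ifit1 in callosum). The callosal arrays of Ifit1 did not overlap (adjusted p = 0.0577). Ifit1 was called higher there with the filter on low values (adjusted p = 0.0275) and with the replicate number as a block (adjusted p = 0.0487). It was also called without the first adult callosal array (adjusted p = 0.0141) and without both adult arrays numbered 1 (adjusted p = 0.0161).

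Of the 4 interferon-gamma-responsive GTPases measured, Igtp and Irgm1 were called in cortex, and Igtp in callosum. Igtp, an immunity-related GTPase of parasite vacuoles, had 7.62, 8.55 and 8.21 in adult cortex against 7.33, 7.40 and 7.70 in P7 cortex, and 7.60, 8.16 and 8.27 in adult callosum against 7.36, 7.51 and 7.30 in P7 callosum. Its rise of 0.65 ± 0.20 in cortex (adjusted p = 0.0469) came with overlapping arrays, and that of 0.62 ± 0.20 in callosum (adjusted p = 0.0411) without overlap. Irgm1, a regulator of these GTPases, had 7.08, 6.99 and 6.89 in adult cortex against 6.43, 6.47 and 6.46 in P7 cortex, and rose by 0.54 ± 0.16 (adjusted p = 0.0407). In callosum its levels of 6.12, 6.63 and 6.86 in the adult and 6.39, 6.33 and 6.58 at P7 overlapped. The guanylate-binding proteins Gbp3 and Gbp7 were called in neither region, and Gbp7 had the lowest difference in cortex after Bst2 and Eif2ak2 (-0.26 ± 0.22, adjusted p = 0.584).

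Of 7 further induced genes, Sp100, Rtp4 and Xaf1 were called in cortex, and Sp100 in callosum. Sp100, a component of nuclear bodies, had 6.79, 7.16 and 6.89 in adult cortex against 6.27, 6.18 and 5.85 in P7 cortex, and 7.06, 6.72 and 6.63 in adult callosum against 6.28, 5.90 and 5.99 in P7 callosum. It rose by 0.85 ± 0.19 in cortex (adjusted p = 0.00462) and by 0.75 ± 0.19 in callosum (adjusted p = 0.00791), without overlap. Sp100 had 4 probe sets, which gave differences of 0.85, 0.66, 0.57 and 0.32 in cortex and of 0.75, 0.53, 0.68 and -0.26 in callosum, so they disagreed there. With the mean over its probe sets the callosal call was lost (adjusted p = 0.0861). Rtp4, a chaperone that is strongly induced by interferon, had 6.92, 7.56 and 7.06 in adult cortex and 6.51, 6.32 and 6.44 in P7 cortex (0.76 ± 0.19, adjusted p = 0.0136), without overlap. Xaf1, a promoter of cell death, had 7.42, 7.99 and 7.76 in adult cortex and 7.13, 6.81 and 7.11 in P7 cortex (0.71 ± 0.18, adjusted p = 0.0153), also without overlap. In callosum the difference was 0.52 ± 0.19 for Rtp4 (adjusted p = 0.0744) and 0.30 ± 0.18 for Xaf1 (adjusted p = 0.306). Rtp4 was called higher there with the filter on low values (adjusted p = 0.0367). It was also called without the second adult array (adjusted p = 0.0434) or the second P7 array (adjusted p = 0.0297). Ifi35, Parp9, Parp14 and Trim30a were called in neither region.

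**Figure D2:**
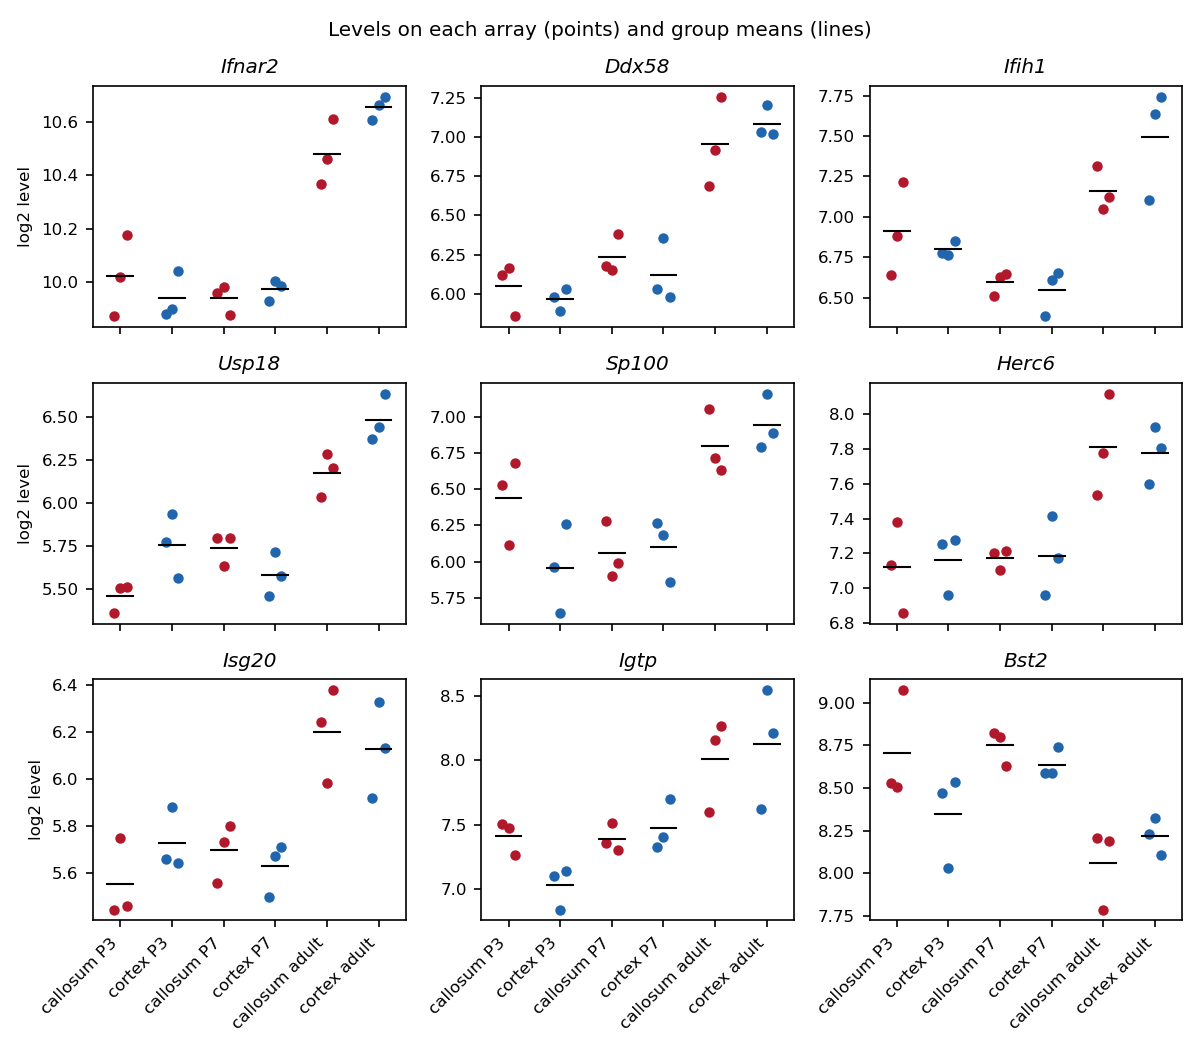
Each panel shows the log2 level of a gene on each array (points, red for corpus callosum and blue for cortex) with the group mean as a line, for the 8 genes called higher in adult than in P7 microglia in both regions and for Bst2, which was called lower in callosum. The panels have separate vertical scales that do not start at 0. The adult points lie above the P7 points of their region for 7 of the 8 genes in both regions and overlap for Igtp in cortex, and the adult points of Bst2 lie below.

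**Figure D3:**
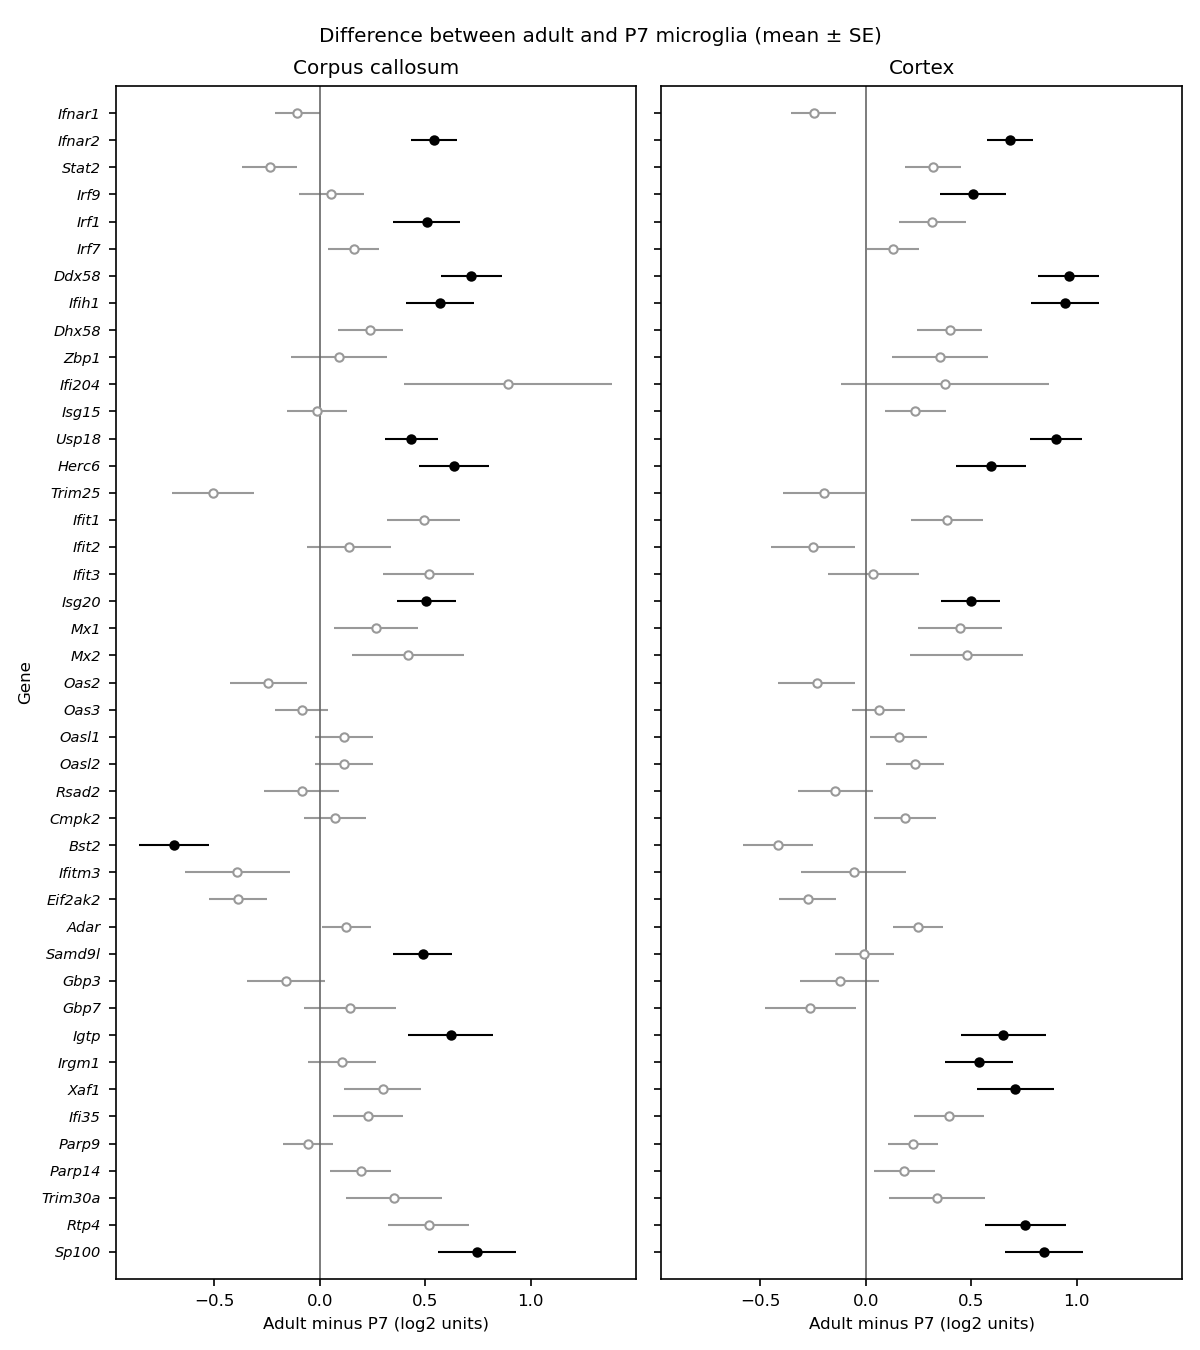
The points give the log2 difference of adult minus P7 microglia for each of the 43 genes in corpus callosum (left) and cortex (right), with bars of 1 SE on a shared horizontal scale. Filled black points are genes called at an adjusted p under 0.05. In cortex 12 genes are filled, all to the right of 0, and in callosum 11, of which Bst2 lies to the left.

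How firmly each gene was called depended on single arrays. In cortex the count fell to 5 without the second adult array and to 6 without the third adult array or the second P7 array. It was 7 without the first P7 array, 8 without the third P7 array and 11 without the first adult array. Calls over all genes moved as well: 899 were higher in cortex with every array. With an array left out 561 to 1004 were higher, among them 612 without the second adult array and 592 without the third. The first 3 of the 12 by adjusted p (Usp18, Ddx58 and Ifnar2), Ifih1 and Sp100 were called under every alternative. Rtp4 lost its call without the second P7 or the second adult array, and Xaf1 without either of these or the third adult array. Herc6 lost it without the first or the third P7 array or the second or the third adult array. Igtp lost it without the first or the second P7 array or the second or the third adult array, Isg20 and Irf9 without any array but the first adult one, and Irgm1 without any of the 6. In callosum the count was 7 without the first P7 or the third adult array and 8 to 10 otherwise. Over all genes, 1454 were higher in callosum with every array and 986 to 1244 with an array left out. Ddx58, Ifnar2 and Bst2 were called under every alternative. Herc6 lost its call without the third adult array, Ifih1 without the first P7 or first adult array, and Isg20 without either of these or the third adult array. Usp18 lost it without the second P7 array or the second or the third adult array, Samd9l without the third P7 or the first adult array, Igtp without any array but the first adult one, and Irf1 without any but the second P7 one. Other settings ended calls too: with only the compared groups fitted, Igtp (adjusted p = 0.117) and Isg20 (adjusted p = 0.055) lost theirs in cortex and Samd9l (adjusted p = 0.085) in callosum. Samd9l also lost it with quantile normalization repeated (adjusted p = 0.0685), and Samd9l and Irf1 lost it without both adult arrays numbered 1 (adjusted p = 0.117 and 0.0639).

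Markers of cells moved in the same comparison. For scale, 4.05% of all genes were called higher and 6.15% lower in cortex, and 6.56% and 10.7% in callosum. Of 9 microglia markers, 4 were called higher in adult than in P7 cortex and 7 in callosum (median 0.38 and 0.47). Of 8 markers of border macrophages, 4 were called lower in cortex (Mrc1, Pf4, Cbr2 and Folr2) and 5 in callosum (these and Ms4a7). The mean of that list lay between 5.34 and 5.40 on adult cortical arrays against 6.49 to 6.90 on P7 cortical arrays, and between 5.45 and 5.50 on adult callosal arrays against 6.76 to 6.96 on P7 callosal arrays. Of 8 monocyte markers, 1 was called higher and 2 lower in each region, and of 8 neuron markers 4 were called lower in cortex and 0 in callosum. Of 6 astrocyte markers, Slc1a3 and Aqp4 were called higher in cortex and Slc1a3 in callosum. Pecam1, alone of 9 endothelial and mural markers, was called higher in cortex (list median 0.05). Mbp, alone of 6 oligodendrocyte markers, was called lower in callosum (list median -0.02). Pacsin1, alone of 4 plasmacytoid dendritic cell markers, was called lower in both regions (list median 0.004 in cortex and -0.05 in callosum). Neutrophil and lymphocyte lists had 0 calls in limma in both regions, and 7 of 8 lymphocyte markers lay under the array median on all 18 arrays. The part of these shifts in the interferon response genes was not tested.

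Few genes of the list differed between the regions within an age. At P3, 1 of the 43 genes was called higher in callosum than in cortex and 0 lower, where 0.352% of all genes were called higher and 0.153% lower. At P7, 0 of the 43 were called in either direction (0.451% of all genes), with 2 at an unadjusted p under 0.05 (6.88% of all genes). In the adult, 0 were called (0.00451% of all genes), with 10 at an unadjusted p under 0.05 (8.51% of all genes), and at P3 that number was 11 (12.8%). The median regional difference of the list was 0.15 at P3, -0.05 at P7 and -0.15 in the adult, while that of all genes was 0.01, 0.00 and 0.01. Genes with a positive difference numbered 33 of 43 at P3, 16 at P7 and 9 in the adult, against 51.9%, 50.8% and 51.8% of all genes. The callosal arrays lay wholly above the cortical ones for 9 genes and wholly below for 3 at P3 (9.17% and 6.67% of all genes), and for 1 and 4 at P7 (8.97% and 7.76%).

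**Figure D4:**
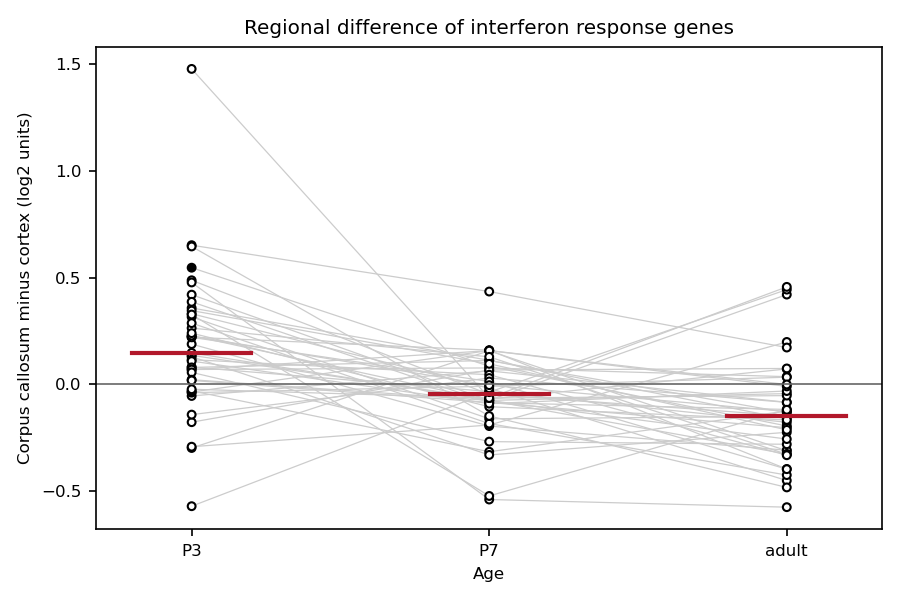
Each point is the log2 difference of corpus callosum minus cortex for one of the 43 genes at P3, P7 and in the adult, with grey lines that join the points of a gene and a red bar at the median. Parp9 at P3 is filled as the single call. The medians lie at 0.15, -0.05 and -0.15, and the highest point at P3 is Ifi204 at 1.48.

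The call at P3 was Parp9, which pairs with the ligase Dtx3l in the response to interferon and DNA damage. It had 7.52, 7.38 and 7.37 in P3 callosum and 6.78, 6.82 and 7.03 in P3 cortex, a difference of 0.55 ± 0.12 (1.46-fold, adjusted p = 0.0463) without overlap. The call held under only 1 of 6 fits with an array left out, that without the third cortical array (adjusted p from 0.0495 to 0.18), and was lost when only the compared groups were fitted (adjusted p = 0.268) and with the replicate number as a block (adjusted p = 0.0689). At P7 Parp9 had 7.20, 7.11 and 7.00 in callosum and 7.00, 7.06 and 6.99 in cortex, and in the adult it had 6.92, 7.20 and 7.02 in callosum and 7.05, 7.33 and 7.33 in cortex. The regions overlapped at both later ages, but the change of the regional difference between P3 and the adult was not called (-0.74, adjusted p = 0.0796).

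The 3 largest positive differences at P3 were those of genes highest on 1 callosal array. Ifi204, a DNA sensor of a family of similar genes, had 5.44, 5.57 and 8.34 in P3 callosum and 4.87, 5.20 and 4.85 in P3 cortex (1.48 ± 0.49, adjusted p = 0.196). Zbp1, a sensor that can trigger cell death, had 6.07, 6.17 and 7.19 in P3 callosum and 5.71, 6.01 and 5.76 in P3 cortex (0.65 ± 0.23, adjusted p = 0.222). Ifitm3 had 7.37, 8.06 and 8.84 in P3 callosum and 7.43, 7.53 and 7.37 in P3 cortex (0.65 ± 0.25, adjusted p = 0.267). The third callosal array was the highest of all 18 for each of these, and for 8 of the 43 genes in all. That array also had the highest mean of the border macrophage list (7.35), the neutrophil list (5.87) and the monocyte list (6.18). Without it the differences were 0.53 ± 0.24 for Ifi204, 0.30 ± 0.18 for Zbp1 and 0.27 ± 0.20 for Ifitm3 (adjusted p = 0.36, 0.512 and 0.618). Without the first callosal array, in contrast, Ifitm3 was called (1.01, adjusted p = 0.0453). At P3, 2 of 8 border macrophage markers (Folr2 and Ms4a7) and 1 of 8 monocyte markers (Lyz2) were called higher in callosum. Neuron markers called lower were 2 of 8 (Gap43 and Meg3). The shares of all genes were 0.352% higher and 0.153% lower. The part of these markers in the differences was not tested.

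Of the other genes at P3, none passed the test, among them Sp100 (0.49 ± 0.19, adjusted p = 0.261) and Gbp3 (0.48 ± 0.19, adjusted p = 0.273). Isg15 had 5.58, 5.50 and 5.43 in P3 callosum and 5.25, 5.21 and 4.79 in P3 cortex, without overlap (0.42 ± 0.14, adjusted p = 0.205). Ifit3 had 6.70, 6.40 and 6.42 in P3 callosum and 6.80, 7.03 and 7.39 in P3 cortex, the lowest difference of the list (-0.57 ± 0.21, adjusted p = 0.257). Usp18 had 5.36, 5.51 and 5.51 in P3 callosum and 5.77, 5.94 and 5.57 in P3 cortex (-0.30 ± 0.12, adjusted p = 0.316). The regions overlapped for neither Ifit3 nor Usp18, and the next lowest difference was that of Ifit2, which joins the Ifit complex (-0.29 ± 0.20, adjusted p = 0.584).

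The signalling chain, the regulatory factors and the RNA sensors Ddx58 and Ifih1 overlapped between the regions at P3. Ifnar1 had 8.54, 8.61 and 8.83 in P3 callosum and 8.49, 8.58 and 8.50 in P3 cortex, and Ifnar2 had 9.87, 10.02 and 10.18 in callosum and 9.88, 9.90 and 10.04 in cortex. Stat2 had 6.85, 6.77 and 7.24 in callosum and 6.56, 6.78 and 6.85 in cortex, and Irf9 had 7.28, 6.84 and 7.20 in callosum and 6.85, 6.74 and 6.95 in cortex. These 4 overlapped between the regions. Irf1 had 6.30, 6.75 and 6.94 in P3 callosum and 6.58, 6.72 and 6.78 in P3 cortex, and Irf7 had 5.84, 5.91 and 5.58 in callosum and 5.62, 5.88 and 5.76 in cortex. Ddx58 had 6.12, 6.17 and 5.86 in callosum and 5.98, 5.89 and 6.03 in cortex. Ifih1 had 6.64, 6.88 and 7.22 in callosum and 6.78, 6.76 and 6.85 in cortex. None of these 8 genes was called.

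Of the effectors at P3, Bst2 had 8.53, 8.51 and 9.08 in callosum and 8.47, 8.03 and 8.54 in cortex, which overlapped. Oasl2 had 5.63, 6.02 and 5.63 in callosum and 5.61, 5.83 and 5.77 in cortex. Rsad2 had 4.18, 4.83 and 4.55 in callosum and 4.10, 4.58 and 4.55 in cortex. These effectors overlapped, as did Mx1, which had 4.24, 4.97 and 4.49 in callosum and 4.20, 4.26 and 4.55 in cortex. Adar had 7.07, 7.10 and 7.28 in P3 callosum and 7.00, 6.74 and 7.03 in P3 cortex, and Igtp had 7.50, 7.48 and 7.26 in callosum and 7.10, 6.84 and 7.14 in cortex. Only Adar and Igtp were separated among these 6, with 0.23 ± 0.12 (adjusted p = 0.433) and 0.39 ± 0.20 (adjusted p = 0.44).

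At P7 the lowest regional differences were those of the guanylate-binding proteins Gbp3 and Gbp7, GTPases that attack pathogen vacuoles, and in the adult Gbp3 was lowest. Gbp3 had 6.03, 6.47 and 6.26 in P7 callosum against 6.67, 6.84 and 6.86 in P7 cortex (-0.54 ± 0.19, adjusted p = 0.414), and 6.34, 5.67 and 6.26 in adult callosum against 6.48, 6.92 and 6.60 in adult cortex (-0.57 ± 0.19, adjusted p = 0.447). Gbp7 had 7.31, 7.90 and 7.73 in P7 callosum against 7.96, 8.27 and 8.28 in P7 cortex (-0.52 ± 0.22, adjusted p = 0.617). The regions did not overlap for these 3 comparisons, yet none was called. In the adult the regions overlapped for Gbp7 (-0.12 ± 0.22, adjusted p = 0.918). Next at P7 came Ifit1 with -0.33 ± 0.17 (adjusted p = 0.796), and the highest were Zbp1 with 0.43 ± 0.23 (adjusted p = 0.799), Stat2 with 0.16 ± 0.13 and Dhx58 with 0.16 ± 0.15.

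In adult microglia the lowest regional differences after Gbp3 were those of Ifitm3 (-0.48 ± 0.25, adjusted p = 0.621), Irgm1 (-0.45 ± 0.16, adjusted p = 0.488) and Rtp4 (-0.42 ± 0.19, adjusted p = 0.568). Stat2 had -0.40 ± 0.13 (adjusted p = 0.452). The highest were Ifi204 (0.46 ± 0.49, adjusted p = 0.849), Ifit3 (0.44 ± 0.21, adjusted p = 0.595) and Samd9l (0.42 ± 0.14, adjusted p = 0.452). Adult callosal arrays lay wholly above the cortical ones for 1 gene and wholly below for 6 (6.73% and 6.07% of all genes).

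The change of the regional difference with age was tested by interaction terms, which in limma called 0 of the 43 genes in each of 3 comparisons. Between P7 and P3, where 0% of all genes were called, 8 had an unadjusted p under 0.05 (5.68% of all genes). The lowest values were those of Ifi204 (-1.54 ± 0.70), Gbp3 (-1.02 ± 0.26) and Gbp7 (-0.85 ± 0.31), each with an adjusted p of 0.868, and Ifi204 had -0.59 ± 0.32 without the third callosal P3 array. The highest were Ifit3 (0.53 ± 0.30, adjusted p = 0.87), Usp18 (0.45 ± 0.17, adjusted p = 0.868) and Isg20 (0.24 ± 0.20, adjusted p = 0.921).

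Between the adult and P7, where 0.203% of all genes were called, 3 of the 43 had an unadjusted p under 0.05 (7.34% of all genes). Between Stat2 and Irf9, which are given above, stood Usp18 with -0.47 ± 0.17 (adjusted p = 0.529), whose rise was 0.43 in callosum and 0.90 in cortex. The highest were Ifi204 (0.52 ± 0.70), Samd9l (0.49 ± 0.20, adjusted p = 0.565) and Ifit3 (0.48 ± 0.30, adjusted p = 0.795). Between the adult and P3, where 0.18% of all genes were called, 15 of the 43 had an unadjusted p under 0.05 (13.7% of all genes), and 7 had a positive value (50% of all genes). Positive values numbered 11 between P7 and P3 (48.2% of all genes) and 14 between the adult and P7 (51.2%). The median was -0.35 for the list and -0.00 for all genes. The lowest were Ifitm3 (-1.13 ± 0.35, adjusted p = 0.164), Gbp3 (-1.05 ± 0.26, adjusted p = 0.1) and Ifi204 (-1.02 ± 0.70, adjusted p = 0.549). Without the third callosal P3 array these were -0.75 ± 0.27 for Ifitm3 and -0.07 ± 0.32 for Ifi204. The highest were Ifit3 (1.01 ± 0.30, adjusted p = 0.146), Ifit2 (0.49 ± 0.28, adjusted p = 0.463) and Samd9l (0.27 ± 0.20, adjusted p = 0.571).

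P3 samples are labelled with a prefix of their own, so age and array set cannot be told apart between P7 and P3. In cortex 0 of the 43 were called in limma (0.884% of all genes), with 7 at an unadjusted p under 0.05 (13% of all genes), and 34 differences were positive (51.3% of all genes). The P7 arrays lay wholly above the P3 arrays for 13 genes and wholly below for 2 (10.9% and 10.4% of all genes). The median was 0.15 for the list and 0.01 for all genes. Gbp7 had 7.96, 8.27 and 8.28 in P7 cortex and 7.24, 7.20 and 7.34 in P3 cortex, which did not overlap (0.91 ± 0.22, adjusted p = 0.0548). It passed the threshold under 5 alternatives. Gbp3 had 6.67, 6.84 and 6.86 in P7 cortex and 6.08, 5.80 and 6.32 in P3 cortex (0.72 ± 0.19, adjusted p = 0.0765), and Mx2, a GTPase related to Mx1, had a difference of 0.72 ± 0.27 (adjusted p = 0.241). The lowest were Ifih1 (-0.25 ± 0.16, adjusted p = 0.553), Oasl2 (-0.22 ± 0.14, adjusted p = 0.533) and Usp18 (-0.17 ± 0.12, adjusted p = 0.597).

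In callosum 0 of the 43 were called between P7 and P3 (0.739% of all genes), with 7 at an unadjusted p under 0.05 (14.2% of all genes). The P7 arrays lay wholly above for 2 genes and wholly below for 5 (9.43% and 9.36% of all genes). Positive differences numbered 19 of 43 (49.9% of all genes), with a median of -0.03 for the list and -0.00 for all genes. The highest were Ifit3 (0.40 ± 0.21, adjusted p = 0.425), Mx2 (0.38 ± 0.27, adjusted p = 0.565) and Usp18 (0.28 ± 0.12, adjusted p = 0.312). The lowest were Ifi204 (-1.05 ± 0.49, adjusted p = 0.347), Ifitm3 (-0.74 ± 0.25, adjusted p = 0.174) and Sp100 (-0.39 ± 0.19, adjusted p = 0.357). Ifi204 and Ifitm3 were those that stood out on the third callosal P3 array, without which they differed by -0.10 ± 0.24 and -0.37 ± 0.20 (adjusted p = 0.875 and 0.375). Without the first one Ifitm3 was called (-1.10, adjusted p = 0.0492).

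The mean level of the 43 genes on an array was lowest in P3 cortex and highest in adult cortex. It lay between 6.47 and 6.68 in P3 callosum and 6.33 and 6.45 in P3 cortex, between 6.47 and 6.51 in P7 callosum and 6.52 and 6.54 in P7 cortex, and between 6.63 and 6.78 in adult callosum and 6.69 and 6.95 in adult cortex. The second adult cortical array was the highest of all 18 for 11 genes. Within groups, most genes of the list correlated with the mean of the others. Over the deviations of the 18 arrays from their group means, the correlation of a gene with the mean of the other genes of the list had a median of 0.43, and 34 of 43 were above 0. For the 22137 other genes the median was 0.00498, and 50.5% were above 0. Eif2ak2 (0.733), Gbp7 (0.732) and Ifnar2 (0.729) were highest, and Oas2 (-0.647) and Isg15 (-0.594) lowest. All genes of an array share its amplified RNA and its scaling, so these values describe 18 arrays and carry no test. No other list of genes of similar level was compared, so a trait of interferon genes cannot be read from them. Genes outside the list were also ranked, after those with names of predicted genes, clones or small RNAs were left out. Of the rest, those with the most similar deviations were Akap9 (0.901), Atxn2l (0.897), Pdia6 (0.896), Czib (0.893), Abcf1 (0.889), Snap23 (0.888), Egr3 (0.887), Pxn (0.887), Kpnb1 (0.885) and Plekhg2 (0.884). Each of these values lay above 0.733, the highest within the list.

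Genes with and without an ISRE core in the promoter were both among the calls, and the difference between them was not tested. Of 16 measured genes with a core, 4 were called higher in adult than in P7 cortex, against 6 of 17 without one, and the median difference was 0.15 with a core and 0.25 without. In callosum 3 with a core were called higher and 1 lower, against 6 higher without, and the medians were 0.04 with a core and 0.16 without. The shares of all genes were 4.05% called higher in cortex, and 6.56% called higher and 10.7% lower in callosum. Isg15, which had 3 overlapping cores and lay above the array median on 1 of 18 arrays, was called in neither region. Bst2, with 2 cores, was the gene that fell.

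Other genes of the interferon pathways were read from a list of 97, of which 83 were measured. Between adult and P7 cortex 14 were called higher and 1 lower, with a median of 0.28, and between adult and P7 callosum 15 were called higher and 2 lower, with a median of 0.14. The shares of all genes called higher and lower were 4.05% and 6.15% in cortex and 6.56% and 10.7% in callosum. The medians of all genes were 0.03 in cortex and 0.05 in callosum. Irgm2, an immunity-related GTPase, rose by 1.28 ± 0.16 in cortex (adjusted p = 2.74e-05) and by 1.48 ± 0.16 in callosum (adjusted p = 3.72e-06). Sting1, the adaptor of cytosolic DNA sensing, rose by 0.95 ± 0.21 in cortex (adjusted p = 0.00468) and by 1.56 ± 0.21 in callosum (adjusted p = 2.92e-05). Gm4951, a further GTPase of this family, rose by 1.28 ± 0.34 in cortex (adjusted p = 0.0177) and by 1.19 ± 0.34 in callosum (adjusted p = 0.0182). Trim34a rose by 1.07 ± 0.24 in cortex (adjusted p = 0.00589) and was called higher in callosum too.

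The largest change in that list was a fall. Ifitm2, a close relative of Ifitm3, had mean levels of 5.38 in adult callosum against 9.10 in P7 callosum and of 5.50 in adult cortex against 7.90 in P7 cortex. It fell by 3.72 ± 0.29 in callosum (adjusted p = 4.71e-08) and fell by 2.41 ± 0.29 in cortex (adjusted p = 1.16e-05). Ptpn11, a phosphatase of receptor signalling, fell by 0.68 ± 0.22 in callosum (adjusted p = 0.0358). Samhd1, which degrades nucleotides that viruses need, was higher in P3 callosum than in P3 cortex (0.55 ± 0.12, adjusted p = 0.0384). Ms4a4c was lower in P7 than in P3 callosum (-1.19 ± 0.19, adjusted p = 0.0106).

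Of the interferon genes themselves, a single one was called. Of 21 listed, 19 were measured, of which 10 lay under the array median and 7 above it on all 18 arrays. The group means of Ifnb1, which encodes interferon beta, lay between 2.85 and 3.00. That called was Ifna4, an interferon alpha, with 0.52 ± 0.14 between adult and P7 cortex (adjusted p = 0.0189). In that comparison 4.05% of all genes were called higher. In callosum Ifna4 differed by 0.40 ± 0.14 (adjusted p = 0.0577). The interferon alpha genes are near-identical copies, and the Ifit, Ifitm, Oas, Gbp, Ifi200 and Trim30 families hold close relatives, so probes of these genes may take up signal of another copy.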

How the data were processed

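Microglial RNA of 18 samples was hybridised to Affymetrix gene arrays, 1 array per sample. The values are log2 expression levels per probe set, deposited by the authors. The submitters' processing notes name RMA, the robust multi-array average. Its version is not given in the sources used here, and the base of the logarithm was taken as 2 because values ran from 0.87 to 13.8. RMA makes array distributions alike, which hides any shift in the RNA content of whole cells, and it compresses large differences.

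Of 41345 probe sets, 23521 carried 1 gene symbol, 1814 several and 16010 none. Of symbols with more than 1 probe set (1082), the brightest over all arrays was kept, which left 22180 genes. Groups came from the labels. A model with 6 group means was fitted with limma 3.58.1 in R 4.3.3 (lmFit, contrasts.fit and eBayes, 12 residual degrees of freedom), with Benjamini-Hochberg adjustment over all genes. A permutation test of 3 against 3 arrays could not go below 0.1 and was not used. No array pair was identical. The fit was tested on simulated data. The alternatives were other probe set summaries, a filter on low values, repeated quantile normalization, a mean-variance trend, fits of the compared groups alone, the replicate number as a block, and leaving out arrays.

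The genes and lists were chosen with earlier results of these data known. Array values are given for genes called in a comparison and for a set panel, and the 3 largest differences in each direction are named for each comparison, as are up to 3 called genes per direction of the other lists. Promoter sequences are those of RefSeq, GRCm38.p6, whereas the build behind the probe annotation is not given in the sources used here.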

Additional observations from a re-analysis of the deposited data

How the results depend on the processing

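Of the counts and medians of the list, those of the regional comparisons at P7 and in the adult and of the interactions between P7 and P3 and between the adult and P7 stayed within their spread or within 1.5 times under the alternatives run, and no difference turned its direction in a comparison where a gene was called. For callosum against cortex at P3 the count of called genes was 0 with only the groups compared and 0 with the replicate number as a block, and 0 to 1 with an array left out, with medians of 0.12 to 0.25. For adult against P7 cortex, leaving out an array gave 5 to 11 called genes and medians of 0.22 to 0.36 (561 to 1004 of all genes called higher). For adult against P7 callosum it gave 7 to 10 genes and medians of 0.15 to 0.24 (986 to 1244 of all genes called higher). The median was 0.24 without both adult arrays numbered 1, an alternative chosen after seeing the data. For P7 against P3 cortex the count was 1 (Gbp7) with the filter on low values, with repeated quantile normalization, with the trend, with only the groups compared and with the replicate block, with adjusted p of 0.0386, 0.0415, 0.0381, 0.0132 and 0.02. For P7 against P3 callosum it was 0 to 1 with an array left out (Ifitm3). For the regional difference in the adult minus that at P3 it was 2 (Gbp3 and Parp9) with the filter, with a median of -0.45, and 0 to 1 with an array left out, with medians of -0.46 to -0.28. Counts over all genes moved more with only the groups compared. For callosum against cortex at P3, 15 genes were higher and 1 lower (78 and 34 in the fit of all groups). For P7 against P3 callosum, 3 were higher and 2 lower (72 and 92). The causes were not tested, beyond the smaller number of genes or arrays that a filter or a left-out array brings. Same-numbered arrays correlated between -0.0179 and 0.3 in their deviations, and in no comparison did all 3 pairs pass 0.1, so the numbers were not taken to pair samples. With the replicate block, 12 genes were called in adult against P7 cortex and 13 in callosum. Every array correlated best with its own number in callosum against cortex at P7 and in adult against P7 callosum, a hint from the data and not from the design. Precision is limited by 3 arrays per group, and no signal over background was given, so genes near the array medians have uncertain differences.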
